A study of Camellia sinensis with 12 samples.

Results

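Leaves of Kucha-6 (K6) were compared with leaves of Yinghong 9 (YH9) by RNA sequencing, with 3 libraries of each. These 6 libraries are the members of the comparison, chosen by their genotype labels out of the 12 libraries of the series. K6 is a Kucha genotype and YH9 a conventional tea variety. The other 6 libraries come from Kucha-11 (K11, Kucha) and Qingxin 1 (QX1, conventional) and serve here only to show levels beside those of K6 and YH9. No treatment was given, and all genotypes grew in the same germplasm bank, per the labels. Separate plants are not stated for the 3 libraries of either genotype, and the p-values below then cover only library-to-library spread, part of which may be technical. A single genotype stands on each side, so a difference between K6 and YH9 is one between 2 genotypes and not between Kucha and conventional tea.

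Tea leaves make caffeine from purine nucleotides, with methyl groups passed from S-adenosylmethionine by N-methyltransferases. Kucha leaves also store theacrine, a purine alkaloid derived from caffeine, and theacrine content is the contrast for which the genotypes of the series were selected. Yinghong 9 is a cultivar used for black tea. The deposited tables give no gene names, and 0 of their identifiers matched the 80110 genes of the RefSeq table at hand, so no feature below can be tied to alkaloid metabolism or to any other function. For the same reason leaf markers could not be looked up, and leaf is the tissue as labelled. Features with a TEA identifier are annotated genes. Those with an XLOC identifier are loci with a scaffold position and no TEA identifier, called unannotated loci here. TEA features are listed without positions, so overlap of such a locus with an annotated gene could not be checked.

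Values are FPKM, the fragments of a feature per kilobase of its length, scaled to the mapped fragments of the library. Of 42704 listed features, 26916 had at least 1 FPKM in at least 3 of the 6 libraries and were tested, 21420 of them annotated and 5496 unannotated. A further 10938 features had a value above 0 in some of these libraries but missed that limit, and 4850 were listed at 0 in all 6. Summed FPKM ran from 609588 to 633857 per library. Absolute depth is not given by FPKM. Steps between low values gave a depth relative to K6 replicate 2 of 1.08 and 1.01 for K6 replicates 1 and 3, and of 2.81, 1.51 and 1.63 for YH9 replicates 1, 2 and 3. The YH9 libraries were thus the deeper ones, and they listed 7691 to 9061 features at 0 against 9778 to 10923 in K6. Across tested features the Pearson correlation of log2(FPKM + 1) was 0.972 to 0.987 over the 6 pairs of libraries of the same genotype and 0.806 to 0.828 over the 9 pairs of different genotypes.

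K6 and YH9 leaves differed in a large part of their transcripts, and the difference ran both ways. A feature was called where limma gave a Benjamini-Hochberg adjusted p below 0.05 and a difference of at least 1 on the log2(FPKM + 1) scale, which is 2-fold on that scale. By this rule 6212 of the 26916 tested features (23.1%) were called. K6 was higher in 2363 of them (8.78% of tested features) and lower in 3849 (14.3%). Leaves are mixed tissue, so fewer cells of a type and less RNA per cell cannot be told apart in these levels. The 3 K6 libraries did not overlap the 3 YH9 libraries in 64.0% of all tested features, and in 6193 of the 6212 called ones. Most called differences were modest on this scale: the median was 1.54 for higher and -1.52 for lower features. The pseudocount of 1 narrows differences of low features, and one of 0.1 gave medians of 1.84 and -1.87 for its own calls. On the log2(FPKM + 1) scale a difference of at least 8-fold was seen in 190 higher and 274 lower features, and one of at least 32-fold in 14 and 20. At the other end, 16200 tested features (60.2%) had a 95% confidence interval of the difference that lay wholly between -1 and 1.

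**Figure D1:**
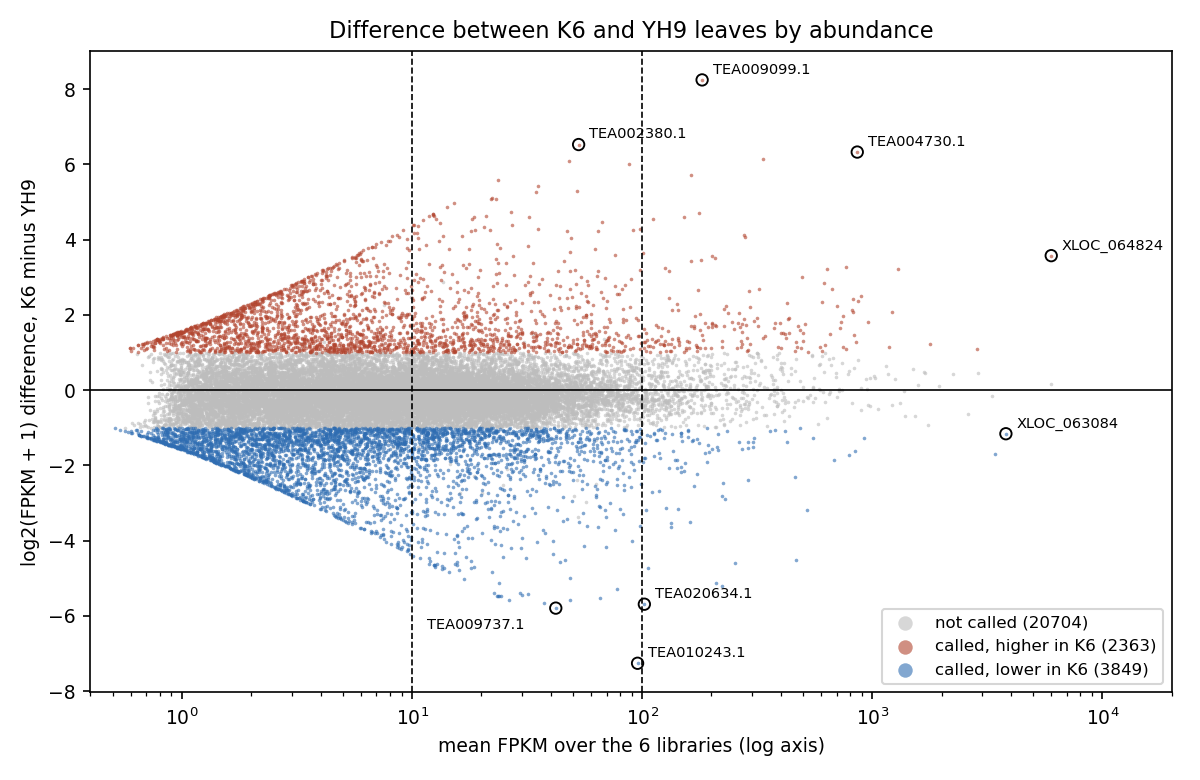
Each point is a tested feature, with the mean FPKM over the 6 libraries on a log x axis and the log2(FPKM + 1) difference of K6 minus YH9 on the y axis. Dashed lines at 10 and 100 FPKM part the abundance classes, circles mark 8 of the named features, and the fan shape at low abundance follows from the pseudocount of 1, which limits how large a difference a low feature can show.

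Part of the called features had to differ, because of how the filter works. At least 1 FPKM in all 3 K6 libraries and in no YH9 library was found for 1043 features, of which 859 were called higher, and the reverse pattern for 1574, of which 1272 were called lower. Among the 21215 features with at least 1 FPKM in all 6 libraries, 1232 were higher and 1901 lower in K6, 14.8% of them together. Without rescaling, lower features thus outnumbered higher ones in this group too, at a median difference of -0.15. That median is near the -0.18 over all tested features, and rescaled counts of this group are not given here. The deeper sequencing of YH9 moved with the excess of lower features, and its part in the low features was not tested.

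The excess of lower features depended on how the libraries were scaled. As deposited, the median difference over all tested features was -0.18, and 38.6% of the differences were above 0. Scaling by a trimmed mean of M-values (TMM), which sets a common level by the bulk of the features, raised that median to -0.03. It gave 2811 higher and 3255 lower features. Upper-quartile scaling gave 2639 and 3467 at a median of -0.09. Quantile normalization, which forces all libraries to the same distribution, gave 2864 and 3138 at a median of -0.02. The share of higher features among all calls was 38.0% without rescaling, 43.2% with upper-quartile scaling, 46.3% with TMM and 47.7% with quantile normalization. Once the common shift was taken out, the balance was nearer to even. Of the 6212 calls, 90.4% were also made with TMM scaling and 87.8% with quantile normalization, and none changed direction.

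Abundance split the comparison. The mean over the 6 libraries set 3 classes, with 911 features above 100 FPKM (abundant), 10497 from 10 to 100 FPKM (middle) and 15508 below 10 FPKM (low). In the abundant class 170 features were higher and 90 lower in K6, so 65.4% of its calls were higher. The middle class held 656 higher and 1099 lower features (37.4% higher), and the low class 1537 and 2660 (36.6%). The median difference was 0.05 in the abundant, -0.17 in the middle and -0.19 in the low class, beside -0.18 over all tested features. Of the abundant features, 28.5% were called, against 16.7% in the middle and 27.1% in the low class.

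**Figure D2:**
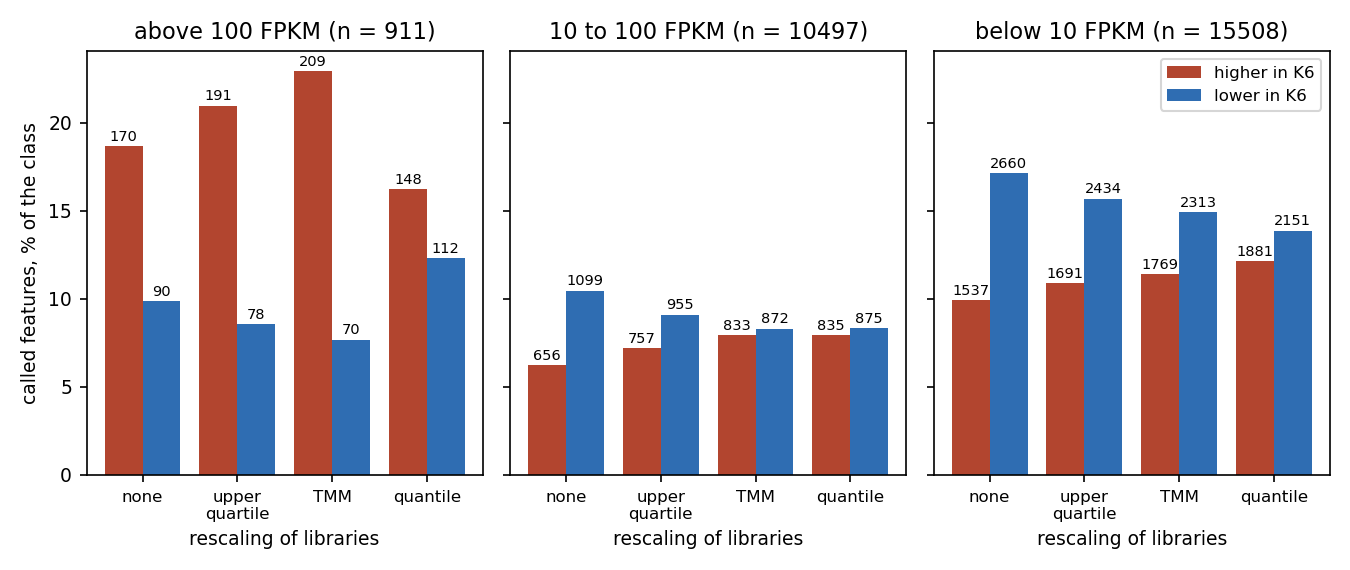
Bars give the called features as a percentage of each abundance class, red for higher and blue for lower in K6, with the number of features above each bar, under no rescaling and 3 kinds of rescaling. The abundant class has more higher than lower features in all 4 (170 and 90 without rescaling, 148 and 112 with quantile normalization), while in the middle and low classes the lower features are the more numerous throughout.

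The abundant class kept more higher than lower features under each rescaling. It had 191 and 78 with upper-quartile scaling, 209 and 70 with TMM, and 148 and 112 with quantile normalization. Its median difference did not keep its sign: it was 0.15, 0.22 and -0.07 in the same order. In the middle class upper-quartile scaling left 757 higher and 955 lower features, TMM 833 and 872, and quantile normalization 835 and 875, so the counts were nearly even under the last pair of methods. In the low class lower features were still in excess, with 1691 higher and 2434 lower by upper-quartile scaling, 1769 and 2313 by TMM and 1881 and 2151 by quantile normalization. The classes include the features that passed the filter through a single genotype, 1574 through YH9 and 1043 through K6. How much of the excess in the low class they make up was not tested. In 10 classes of equal size the shift was -0.27 in the lowest, between -0.15 and -0.21 in the 8 that followed, and -0.08 in the highest, which starts at 41.3 FPKM.

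**Figure D3:**
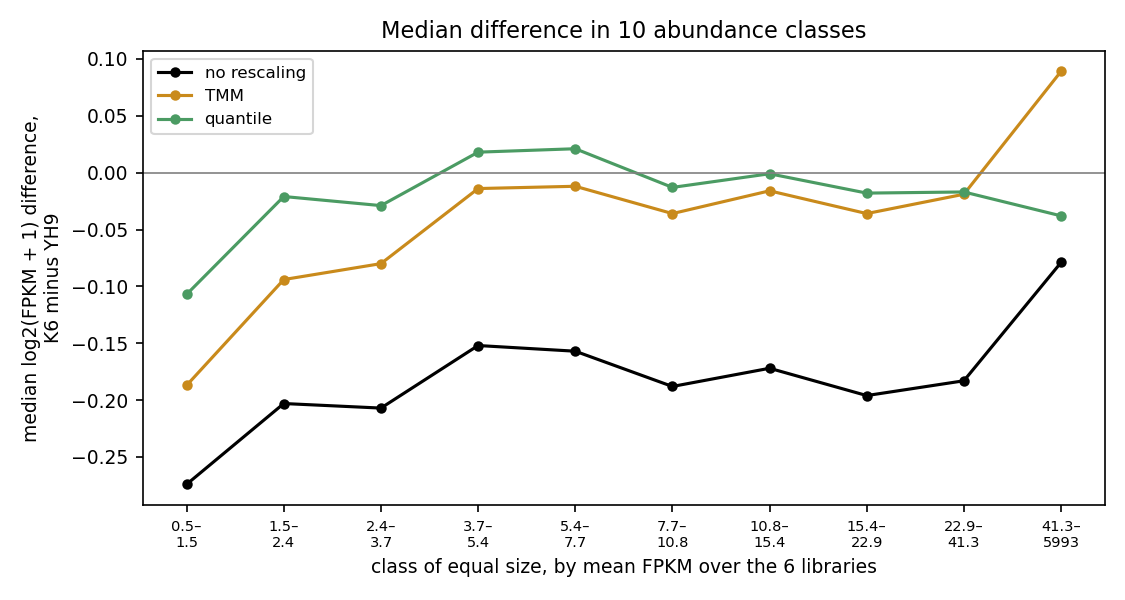
The median log2(FPKM + 1) difference of K6 minus YH9 is drawn for 10 classes of equal size by mean FPKM (low to high along the x axis), without rescaling (black), with TMM (orange) and with quantile normalization (green). The black line lies below 0 in every class and is nearest to 0 in the highest (-0.08), where TMM is above 0 (0.09) and quantile normalization just below (-0.04).

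The abundant class was also formed from libraries outside the comparison. By the K11 mean it held 173 higher and 61 lower features of 864, and by the QX1 mean 218 higher and 34 lower of 895. With the border moved from 100 to 50 FPKM the counts were 304 and 245 of 2163. Higher features outnumbered lower ones in each of these forms of the class, least so with the border at 50 FPKM and most with the QX1 mean. Classes by the K11 or QX1 mean are no independent check of the direction. The 90 abundant features lower in K6 had medians of 73.6 FPKM in K11 and 72.4 in QX1, below the border of 100 FPKM. The 170 higher ones had 212 and 322, so such classes leave out lower features more often. By the QX1 mean the low class held 1470 higher and 3106 lower features.

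The abundant features took a larger share of the summed FPKM in K6 than in YH9. Features above 100 FPKM took 47.5% ± 0.57 of the summed FPKM in K6 and 40.2% ± 0.90 in YH9 (SD, n = 3 each). The 170 abundant features higher in K6 alone held 15.9% ± 0.36 in K6 and 4.54% ± 0.33 in YH9, and the 90 lower ones 2.08% ± 0.06 and 6.61% ± 0.03. These shares describe features chosen for the difference and are no separate result. The 10 most abundant features took 6.28% ± 0.33 of the sum in K6 and 5.39% ± 0.11 in YH9. Of the 100 most abundant features of K6 and of YH9, 57 were the same (57.0% of each list). Of the K6 list, 45 features were called higher and 2 lower in K6, and of the YH9 list 8 and 17. Each list was chosen by the level in 1 of the compared genotypes, which favours calls in its own direction. These counts are thus no separate result either. In the whole abundant class 18.7% of features were higher and 9.88% lower, and over all tested features 8.78% and 14.3%.

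Among annotated genes in the abundant class, TEA009099.1 and TEA004730.1 had the greatest excess in K6. TEA009099.1 stood at 285.31, 513.48 and 293.60 FPKM in K6 replicates 1, 2 and 3, and at 0, 0.30 and 0.19 in YH9. It was the feature with the greatest difference of all, 8.25 ± 0.22 (SE; limma, adjusted p = 7.17e-08). K11 had it at 649 ± 94 FPKM and QX1 at 0.673 ± 0.525 (mean ± SD, n = 3), so YH9 was at the low level of the other conventional variety. TEA004730.1 behaved otherwise. It measured 1695.89, 1526.36 and 1877.16 FPKM in K6 and 14.33, 27.24 and 20.64 in YH9, a ratio of means of 82.0 and a difference of 6.33 ± 0.20 (limma, adjusted p = 1.51e-07). Its means in K11 and QX1 were 1959 ± 327 and 1888 ± 185 FPKM, so YH9 was the genotype that stood apart, and the gene ranked 16th by mean FPKM in K6 and 6320th in YH9.

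The abundant annotated genes with the greatest deficit in K6 were TEA020634.1 and TEA003973.1. TEA020634.1 had 130.54, 258.10 and 212.07 FPKM in YH9, and 5.42, 0.04 and 6.89 in K6. Its difference was -5.69 ± 0.88 (limma, adjusted p = 0.00398), and without K6 replicate 2, the lowest library, the difference was -4.77. TEA003973.1 had 544.55, 369.86 and 371.49 FPKM in YH9 and 28.31, 3.99 and 9.08 in K6, with a difference of -5.21 ± 0.68 (limma, adjusted p = 0.00178). Leaving out K6 replicate 1 gave -5.90 and leaving out K6 replicate 2 gave -4.62. The K6 libraries differed several-fold from each other in TEA003973.1, and by far more in TEA020634.1, where K6 replicate 2 was near 0. In both genes all K6 libraries lay far below those of YH9. QX1 had 18.1 ± 2.9 FPKM of TEA020634.1 and 29.5 ± 7.0 of TEA003973.1, and K11 17.4 ± 3.6 and 121 ± 32, so YH9 was the highest of the 4 genotypes in both. TEA020634.1 lies just inside the class, at a mean of 102 FPKM.

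The unannotated locus XLOC_064824 was the most abundant feature of K6, and of all called features it had the highest mean. It reached 10612.42, 11136.31 and 11418.23 FPKM in K6 and 993.38, 977.04 and 819.65 in YH9, which is 11.9 times as much by the means. The difference was 3.58 ± 0.11 without rescaling, 3.74 with TMM and 2.87 with quantile normalization (limma, adjusted p = 6.43e-08 without rescaling). QX1 was at the level of K6 (11739 ± 839 FPKM), while K11 lay between them at 2669 ± 875. The locus lies on the plus strand of scaffold 825 from 411838 to 413583, as numbered in the tables, for which the sources used here name no genome build. The length listed for unannotated loci is the genomic span from start to end, and the sources used here do not say which length entered their FPKM.

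The most abundant feature lower in K6 was also an unannotated locus. XLOC_063084 had 2217.97, 2590.32 and 2264.38 FPKM in K6 and 5077.00, 5454.45 and 5238.75 in YH9, where it ranked second of all features. The libraries did not overlap, and the difference of -1.16 ± 0.10 just passed the limit of 1 (limma, adjusted p = 1.62e-05). With TMM scaling it was -0.99 and was not called, and with quantile normalization it was -1.37. The locus spans 68062 to 133776 on the minus strand of scaffold 7703. Both K11 (1199 ± 110) and QX1 (1395 ± 20) were lower still. XLOC_023163 had the greatest deficit among abundant unannotated loci, at 10.14, 37.31 and 18.66 FPKM in K6 and 189.62, 226.71 and 142.22 in YH9. Its difference was -3.18 ± 0.45 (limma, adjusted p = 0.00153), and it was -3.64 without K6 replicate 2 and -2.74 without K6 replicate 1. It lies on the plus strand of scaffold 2241 from 894629 to 896053.

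In the middle class TEA002380.1 and TEA031643.1 led the features higher in K6. TEA002380.1 was at 81.83, 129.03 and 106.34 FPKM in K6 and at 0.12, 0.16 and 0.13 in YH9 (difference 6.53 ± 0.16; limma, adjusted p = 2.77e-08). Of the other genotypes QX1 had 18.1 ± 2.3 FPKM, and K11 had 0.14 FPKM in replicate 1 and 0 in its other libraries. TEA031643.1 was at 89.93, 106.15 and 91.33 FPKM in K6 and at 0.16, 0.50 and 0.61 in YH9 (difference 6.10 ± 0.14; limma, adjusted p = 2.76e-08), with 37.4 ± 10.4 in QX1 and 2.85 ± 1.47 in K11. For both genes K6 was the highest genotype and QX1 the next. K11 was near the level of YH9 in the first gene, and all its libraries lay above those of YH9 and below those of QX1 in the second.

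The greatest deficit of K6 among all features was that of TEA010243.1, also in the middle class with a mean of 95.5 FPKM, just below the border. It had 0.20, 0.22 and 0.33 FPKM in K6 and 194.43, 198.44 and 179.32 in YH9, a difference of -7.26 ± 0.10 (limma, adjusted p = 1.15e-09). K11 was as low as K6, at 0.213 ± 0.220, and QX1 had 18.8 ± 6.5. TEA009737.1 followed, at 0.69, 0.41 and 0.49 FPKM in K6 and 86.71, 81.75 and 82.65 in YH9 (difference -5.79 ± 0.11; limma, adjusted p = 1.37e-08). Both K11 (5.91 ± 0.56) and QX1 (6.78 ± 0.44) lay between K6 and YH9.

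Of the unannotated loci of the middle class, XLOC_021118 had the greatest excess in K6. It measured 42.77, 44.32 and 49.81 FPKM in K6 and 0, 1.29 and 0.13 in YH9, with a difference of 5.08 ± 0.28 (limma, adjusted p = 1.94e-06). K11 and QX1 had 27.2 ± 2.2 and 30.6 ± 2.4, so YH9 again stood apart. The locus lies on the plus strand of scaffold 212 from 158875 to 168052. The greatest deficit was that of XLOC_054300, at 0.19, 0 and 0.14 FPKM in K6 and 54.97, 49.68 and 52.57 in YH9 (difference -5.59 ± 0.12; limma, adjusted p = 2.52e-08). It lies on the plus strand of scaffold 5668 from 872795 to 874454, and K11 and QX1 had 8.44 ± 1.5 and 3.75 ± 1.12.

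Low features can differ only in a narrow range on this scale, and the leading ones were nearly absent from one genotype. TEA010278.1 had 14.10, 14.77 and 16.96 FPKM in K6 and 0.10, 0.14 and 0.10 in YH9 (difference 3.87 ± 0.15; limma, adjusted p = 1.87e-07). TEA015749.1 had 10.32, 11.30 and 18.66 in K6 and was listed at 0 in all YH9 libraries (limma, adjusted p = 1.61e-06). Both were present in K11 (13.0 ± 1.5 and 16.6 ± 2.5) and in QX1 (11.2 ± 1.7 and 14.3 ± 1.0), so YH9 was the lowest genotype in both. In the other direction TEA020816.1 was listed at 0 in all K6 libraries and had 17.25, 22.65 and 18.60 FPKM in YH9 (limma, adjusted p = 1.44e-07). K11 had 4.90 ± 0.57 of it, and QX1 was listed at 0 as well. TEA001987.1 had 0.05, 0 and 0 FPKM in K6 and 16.55, 18.31 and 21.94 in YH9 (difference -4.29 ± 0.15; limma, adjusted p = 1.6e-07), and did not exceed 0.24 in any K11 or QX1 library.

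The leading unannotated loci of the low class were also close to all or none. XLOC_056300, on the plus strand of scaffold 605 from 83794 to 92019, had 16.84, 20.09 and 17.59 FPKM in K6 and 0 in the 3 YH9 libraries (limma, adjusted p = 1.12e-07). K11 had 26.0 ± 1.6 of it, and QX1 had 0.06 in one library and 0 in the others. XLOC_030393, on the minus strand of scaffold 2771 from 149082 to 150431, had 0, 0 and 0.12 FPKM in K6 and 22.72, 14.64 and 20.23 in YH9 (difference -4.26 ± 0.18; limma, adjusted p = 3.3e-07). It stayed at or below 0.55 in all K11 and QX1 libraries.

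**Figure D4:**
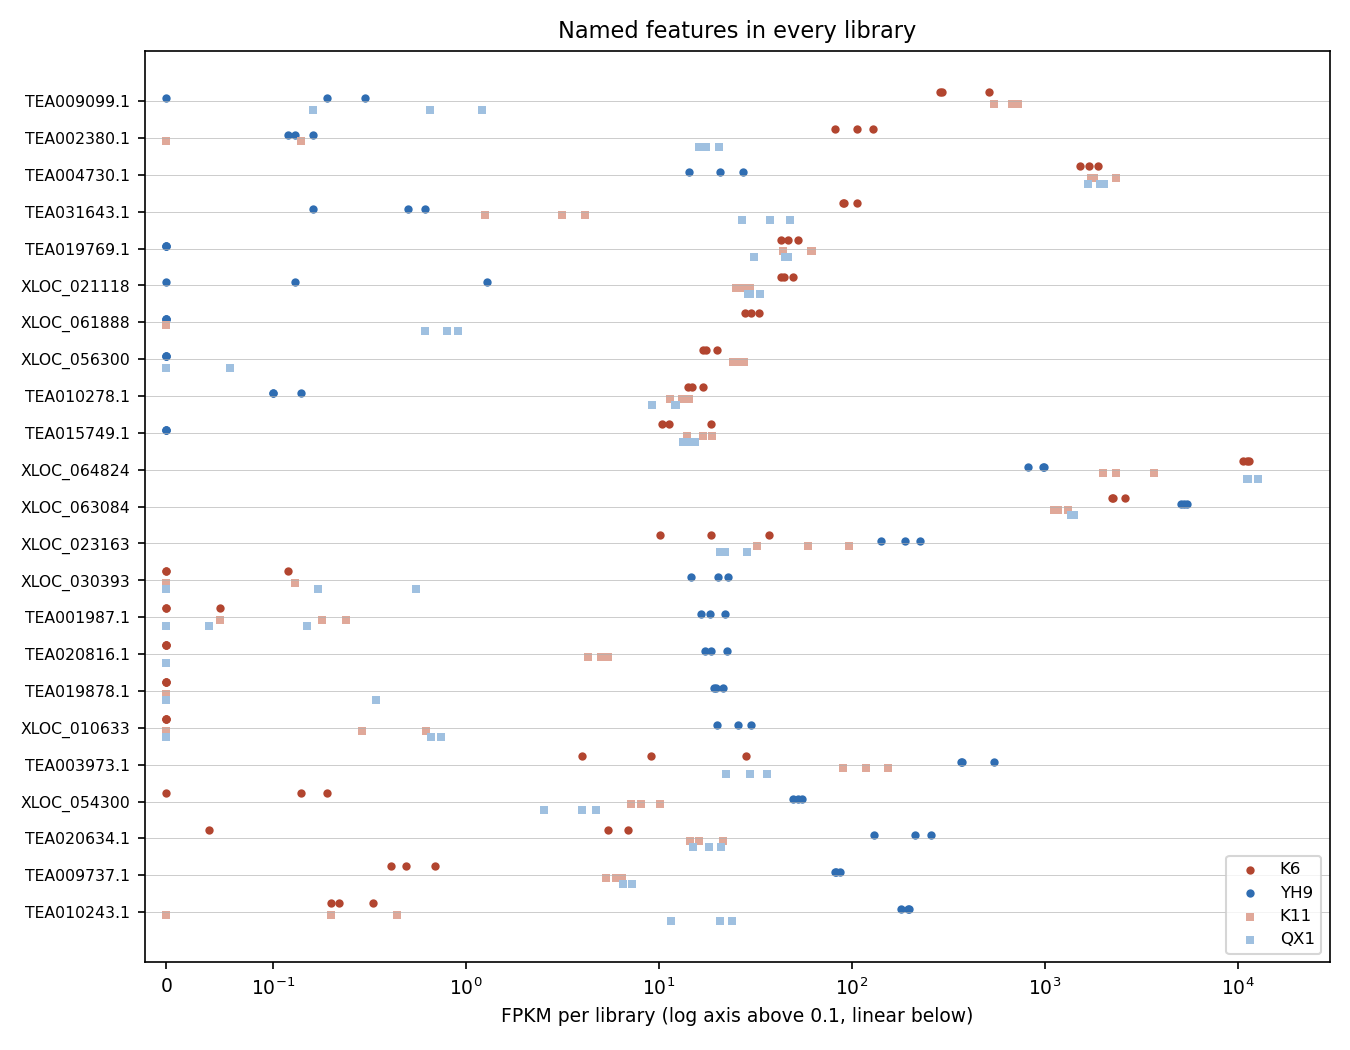
Each row is a named feature, ordered by the difference of K6 minus YH9 with the greatest excess at the top, and each point is the FPKM of 1 library on an axis that is logarithmic above 0.1 and linear below. Circles are the compared K6 (red) and YH9 (blue) libraries and squares those of K11 and QX1; the K6 and YH9 circles do not overlap in any row, while the squares lie with K6 in some rows, such as TEA004730.1, and with neither in others, such as TEA009737.1.

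A set of features was listed at 0 in one genotype and had at least 1 FPKM in all 3 libraries of the other. This held for 197 features present in K6, 61 annotated and 136 unannotated, and for 280 present in YH9, 65 annotated and 215 unannotated. Most were low: the median level where present was 3.03 FPKM in the first set and 2.91 in the second, with maxima of 47.4 and 25.2. A value of 0 can stand for a level below rounding or below the depth of the library, or for a failed estimate, and K6 was the shallower genotype. With at least 5 FPKM required in all 3 libraries, 34 features were left for K6 and 45 for YH9. All 477 were called by limma, as the filter and the pattern nearly ensure. The count of 477 is 7.68% of all calls.

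Levels in K11 and QX1 were set beside these features. Most features of either set were neither present throughout both of these genotypes nor at 0 throughout both. Of the 197 features present in K6 and at 0 in YH9, 43 had at least 1 FPKM in all K11 libraries, 60 in all QX1 libraries and 20 in both. At 0 in all libraries of both were 38, so these were seen in K6 alone. Of the 280 present in YH9 and at 0 in K6, 58 had at least 1 FPKM in all K11 libraries, 28 in all QX1 libraries and 12 in both, and 61 were at 0 in both.

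**Figure D5:**
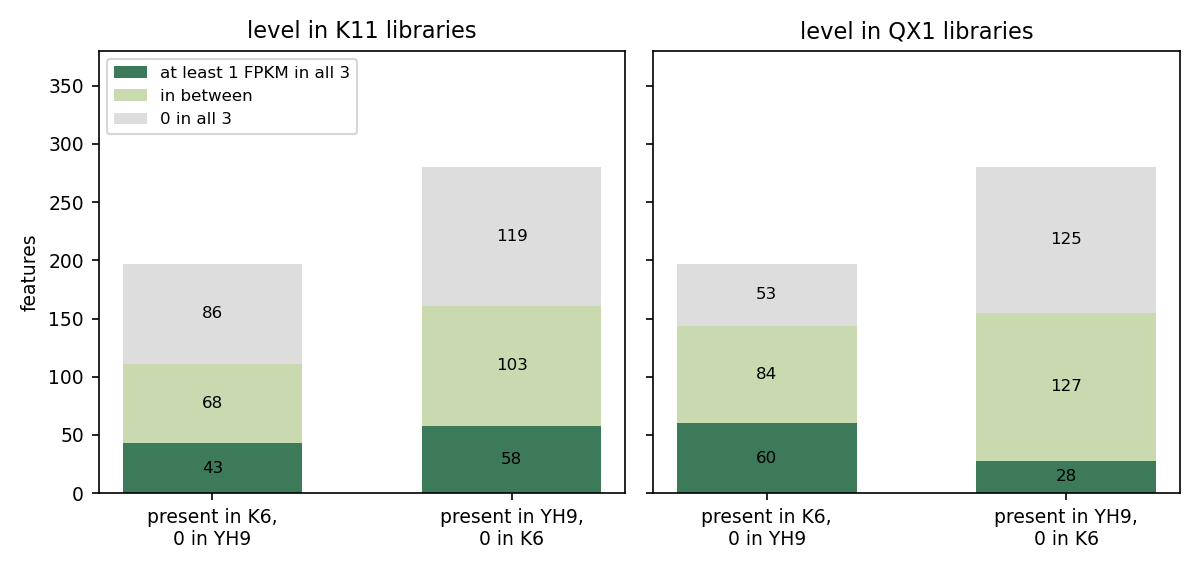
Stacked bars split the 197 features present in K6 and at 0 in YH9 and the 280 features of the reverse pattern by their level in K11 (left) and in QX1 (right), as at least 1 FPKM in all 3 libraries, 0 in all 3, or in between. Fewer of the features at 0 in K6 are present throughout QX1 (28 of 280) than of those at 0 in YH9 (60 of 197).

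The annotated gene with the highest level among those at 0 in YH9 was TEA019769.1, with 46.51, 43.07 and 52.73 FPKM in K6, 56.0 ± 10.2 in K11 and 40.9 ± 8.5 in QX1. It was thus listed at 0 in the YH9 libraries and at like levels in the others. The unannotated locus XLOC_061888 had 27.87, 29.94 and 33.19 FPKM in K6, 0 in all YH9 and K11 libraries and 0.61 to 0.91 in QX1, so it was close to being seen in K6 alone. It lies on the plus strand of scaffold 740 from 1755432 to 1756929. Of the features at 0 in K6, TEA019878.1 had 19.39, 21.57 and 19.79 FPKM in YH9, 0 in K11, and 0.34 in a single QX1 library. XLOC_010633 had 29.95, 25.69 and 20.06 FPKM in YH9, and at most 0.62 in K11 and 0.74 in QX1. It spans 940226 to 986587 on the minus strand of scaffold 1516. In both, every YH9 library was far above every other library of the series.

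A larger share of the unannotated loci than of the annotated genes was called. Of the 5496 tested loci, 712 were higher and 1327 lower in K6, so 37.1% were called, against 19.5% of the 21420 annotated genes (1651 higher, 2522 lower). Features that passed the filter through a single genotype, which nearly had to differ, made up 22.2% of the tested loci and 6.53% of the tested annotated genes. Of the loci, 779 passed through YH9 alone, with 694 called lower, and 440 through K6 alone, with 389 called higher. Among features with at least 1 FPKM in all 6 libraries the shares called were 18.4% of 3282 loci and 14.1% of 17933 annotated genes, a narrower gap. Over all tested features the gap was widest in the low class, where 43.4% of 3895 loci and 21.6% of 11613 annotated genes were called. In the middle class the shares were 21.7% and 15.9%, and in the abundant class the order was the reverse, with 21.7% of 143 loci and 29.8% of 768 annotated genes. Among the loci, lower calls were in excess under all 3 rescalings (765 higher and 1253 lower with upper-quartile scaling, 789 and 1208 with TMM, 809 and 1163 with quantile normalization). Among annotated genes it varied, with 1874 higher and 2214 lower by upper-quartile scaling, 2022 and 2047 by TMM, and 2055 and 1975 by quantile normalization. All these counts include features that passed the filter through a single genotype, more of them through YH9. Loci with at least 1 FPKM in all 6 libraries held 227 higher and 377 lower calls without rescaling. Rescaled counts of those loci are not given here. The median genomic span was 2928.5 bases in the 712 higher, 3140 in the 1327 lower and 4065 in the 3457 loci not called, with wide overlap. The called loci were also less abundant, with a median of the mean FPKM of 3.16 and 2.98 against 5.63.

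Since the unannotated loci have positions, their calls could be laid along the scaffolds. Tested loci fell on 2178 scaffolds, and 1237 scaffolds held at least 2. At least 2 loci were higher in K6 on 122 scaffolds and at least 2 lower on 274, while 233 scaffolds held calls in both directions. Of 769 scaffolds with at least 3 tested loci, 13 had all of them called one way, 8 higher and 5 lower. Of 3318 pairs of tested loci next to each other on a scaffold, 102 were both higher, 237 both lower and 175 called in opposite directions. In 1398 pairs 1 locus was called, and in 1406 neither. Among the 621 pairs less than 10000 bases apart these numbers were 34, 78, 19, 193 and 297. Over all tested loci 13.0% were higher and 24.1% lower, and those shares alone give some pairs called alike. Whether the pairs exceed what the shares give was not tested. Close loci may be parts of the same transcript or share reads, so such pairs are not independent.

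Scaffolds 3106 and 1045 were picked after the values were seen. The first had the most tested loci among scaffolds where all of them were lower, and the second had the most higher loci among scaffolds with none lower. On scaffold 3106 all 5 tested loci were lower in K6. XLOC_034564, XLOC_034567, XLOC_034570 and XLOC_034572 were at 0 in every K6 library and at means of 3.42, 4.63, 1.96 and 1.33 FPKM in YH9. XLOC_034568 had 1.15 FPKM in K6 and 4.43 in YH9. The loci other than XLOC_034564 lie on the minus strand between 243752 and 291222, and XLOC_034568, XLOC_034570 and XLOC_034572 overlap each other there, so they may share reads. All but XLOC_034564 had their highest mean in QX1, up to 20.0 FPKM in XLOC_034567, while 4 of the 5 were at 0 in K11.

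On scaffold 1045, 5 of 6 tested loci were higher in K6. XLOC_000930 was the abundant one, with 324.36, 324.30 and 316.55 FPKM in K6 and 102.82, 101.92 and 90.02 in YH9 (difference 1.70 ± 0.09; limma, adjusted p = 8.21e-07). This locus runs from 331976 to 350516 on the minus strand and overlaps XLOC_000918, on the plus strand from 345870 to 348877, at 5.46 FPKM in K6 and 1.59 in YH9. The sources used here do not say whether reads were assigned by strand, so these loci cannot be told apart with certainty. XLOC_000933 had 1.78, 1.70 and 1.21 FPKM in K6 and was at 0 in all YH9, K11 and QX1 libraries. XLOC_000929 did not pass the test, with 5.89 FPKM in K6 and 5.01 in YH9 (difference 0.20 ± 0.15; limma, adjusted p = 0.286). It runs from 161251 to 192966 on the minus strand. XLOC_000915, called higher, lies within that span on the plus strand from 169514 to 172628, so these loci may share reads as well.

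The called features of each class were also followed to the levels of the other genotypes. The 170 abundant features higher in K6 had medians of 370 FPKM in K6 and 104 in YH9, and of 212 in K11 and 322 in QX1. The 90 abundant features lower in K6 had medians of 77.9 in K6 and 249 in YH9, and of 73.6 and 72.4 in K11 and QX1. In the middle class the 656 higher features had medians of 35.8 in K6, 10.2 in YH9, 22.6 in K11 and 27.4 in QX1. The 1099 lower ones there had medians of 9.29 in K6, 32.1 in YH9, 13.0 in K11 and 10.8 in QX1. In the low class the 1537 higher features had medians of 4.91 in K6, 0.59 in YH9, 1.97 in K11 and 2.67 in QX1. The 2660 lower ones had medians of 0.723 in K6, 4.93 in YH9, 1.72 in K11 and 1.13 in QX1. In each of these sets the medians of K11 and QX1 lay between those of K6 and YH9, except the abundant lower set, where both lay just below K6. K6 and YH9 values chose the sets for lying far apart, which makes a K11 or QX1 median between them likely. That position is therefore a description and no separate result.

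Libraries of the same genotype varied most among the low features. The median SD of log2(FPKM + 1) over 3 libraries was 0.21 in K6 and 0.17 in YH9 in the low class, 0.12 in both genotypes in the middle class, and 0.10 and 0.14 in the abundant class. K6 was the more variable genotype at low levels and YH9 at high levels. In the abundant class 10% of features had an SD above 0.39 in YH9 and above 0.23 in K6.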

How the data were processed

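Leaf RNA of 12 libraries was deposited as 1 table per library, of which the 6 of K6 and YH9 were compared. The authors deposited FPKM values with 2 decimals, per the file headers. TopHat2 2.1.1 and Bowtie2 2.2.8 are named, with no role, per the submitters' processing notes. Which program gave FPKM, on which build and annotation, the sources used here do not say. The labels' protocols describe ribosomal RNA removal and dUTP second strands, in a text that also speaks of retinas, so the strand design is uncertain.

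Differences of log2(FPKM + 1) were tested with limma 3.58.1 in R 4.3.3 (trended, robust prior) on the 6 libraries without rescaling, and p-values were adjusted over all tested features. The test was checked on simulated data. Relative depth is the step most in excess among ratios of low values, and it was least firm for YH9 replicate 1 (44 ratios where 13.5 were expected). Libraries of the same genotype shared at most 1.32% identical values.

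Named in each abundance class were the 2 annotated genes and the 1 unannotated locus with the greatest difference each way. They had to be called alike without rescaling, with TMM and with quantile normalization, and have no overlap between genotypes (5412 features). Added were the called feature with the highest mean each way and the features highest in one genotype and at 0 in the other. The members, lists and classes were chosen with earlier results of these data known. The alternatives are those of the closing section. No sequence is given, since no genome of this build was at hand.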

Additional observations from a re-analysis of the deposited data

How the results depend on the processing

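Of 322 alternative values of the 23 named features, 321 kept their direction and their side of the threshold. The exception is XLOC_063084, whose difference of -1.16 became -0.99 with TMM scaling and was then not called. Most named features had to be called alike without rescaling, with TMM and with quantile normalization, a condition not set for XLOC_063084. Their agreement under those rescalings was thus fixed in advance and is no check. Choosing the greatest differences favours agreement in the other settings too. Rescaling moved the median difference of all features from -0.18 to -0.033 (TMM), -0.017 (quantile normalization) and -0.092 (upper quartile), which these methods bring about by construction, and it was -0.21 with a pseudocount of 0.1 and -0.10 with no filter.

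A filter of 5 FPKM tested fewer features and gave 3721 calls, 1425 higher and 2296 lower, with 601 and 1109 in the low class, 322 and 606 among unannotated loci, and 34 and 73 scaffolds with at least 2 loci called higher or lower. A pseudocount of 0.1 gave 810 higher and 1248 lower features of at least 8-fold in place of 190 and 274, since it widens differences of low features. With the class taken from the QX1 mean, 34 abundant and 709 middle features were lower, and with a border of 50 FPKM 304 abundant features were higher and 245 lower. Requiring 5 FPKM left 34 and 45 features at 0 in YH9 and in K6.

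Leaving out each library in turn gave 6188 to 6405 calls, 2330 to 2405 higher and 3813 to 4013 lower, with 159 to 183 abundant features higher and 87 to 94 lower. Features at 0 in YH9 then numbered 224 to 269 and those at 0 in K6 308 to 397, since fewer libraries have to meet the pattern. The deepest library, YH9 replicate 1, decided none of the counts by more than 1.5 times.

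Replicate numbers did not pair the libraries: deviations of same-numbered K6 and YH9 libraries from their genotype means correlated at 0.03, -0.02 and 0.02. The fit with the replicate number as a block gave 6203 calls, of which 6192 were among the 6212, and a fit on all 12 libraries gave 6235. Depth limits the low class most, and no interval from read counts can be given for FPKM.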
